A study of Mus musculus with 2 samples.

Results

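The chromosome ends described here were the first and last 5 Mb of the 19 mouse autosomes in the GRCm38 (mm10) assembly, cut into 50 kb bins. The centromere-near end of each autosome ran from 3 to 8 Mb, and the telomere-near end was the last 5 Mb up to the last bin with a read in either library. The rule used position alone and no measured level, and gave 1900 centromere-near and 1900 telomere-near bins, 3800 of 48084 autosomal bins. The other 44284 bins, referred to as elsewhere, were the comparison.

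The libraries were ATAC-seq libraries of neural retina from adult C57BL/6 littermates. There was 1 library from wild-type retina and 1 from retina of Gabra3 knockout mice, which lack the gene of the alpha3 subunit of the GABA-A receptor. Both were made from flash-frozen tissue with 20000 nuclei each and read as 75 bp single ends. The labels give neither the form of the deletion nor how many animals went into a library, and the Gabra3 gene lies on the X chromosome, outside all bins used here. With 1 library per genotype no test between genotypes was possible. Each ratio compares these libraries, and each 95% interval is an exact (Clopper-Pearson) interval for counting error only.

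In ATAC-seq the Tn5 transposase cuts accessible DNA and leaves sequencing adapters there, so the 5-prime end of a read marks an insertion and the number of insertions in a bin follows how accessible the bin is. Mouse autosomes carry the centromere at one tip, where long satellite arrays are packed as constitutive heterochromatin, and these arrays are mostly missing from the reference sequence. Beside them, and beside the telomere repeats at the other tip, lie segments that are often duplicated elsewhere in the genome. An aligner that finds more than 1 equally good place for a read gives it a mapping quality of 0, so the share of such reads shows how much of a stretch cannot be read uniquely.

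The files held 9170838 wild-type and 9038110 knockout reads, and 7462427 and 7475033 autosomal insertions remained with mapping quality of at least 10 and 1 read per position and strand. The tissue label was checked on promoters, taken as 500 bp either side of a gene end. The photoreceptor genes Nrl and Crx held 80 and 105 wild-type and 77 and 80 knockout insertions there. Rpe65 of the pigment epithelium held 1 and 2, Pecam1 of endothelium 1 and 3, and Des of vessel wall cells 10 and 12. Single genes varied: 8 pigment epithelium genes had a median of 5.5 and 6.5 but a highest value of 118 and 124. The 26 autosomal rod genes had a median of 73 and 67.5 and a lowest value of 4 and 3. In a tissue of several cell types, fewer cells of a type and less accessible chromatin per cell cannot be told apart.

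The ends were gene-bearing stretches, and upstream sequences of some of their promoters are shown as examples. The 250 bases upstream of the RefSeq start (GRCm38.p6 table) follow for the promoters with most insertions on each side that the table holds, and for a rod gene and a pigment epithelium gene of the telomere-near side as an open and a closed example. Capitals mark 3 motifs on either strand: the GC box GGGCGG, bound by Sp factors, the CCAAT box, bound by NF-Y, and TAATCC, the core bound by the photoreceptor factors Crx and Otx2. No marked match overlapped a match of another motif, and a pair of GC boxes overlapped in Gnb1. Each sequence runs 5-prime to 3-prime on the strand of its gene.
Nmt2: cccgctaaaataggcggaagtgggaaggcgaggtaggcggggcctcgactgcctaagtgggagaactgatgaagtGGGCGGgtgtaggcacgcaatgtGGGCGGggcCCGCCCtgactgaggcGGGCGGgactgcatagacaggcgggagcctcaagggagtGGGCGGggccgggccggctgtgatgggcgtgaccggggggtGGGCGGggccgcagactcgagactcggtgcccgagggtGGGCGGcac
LOC114841036: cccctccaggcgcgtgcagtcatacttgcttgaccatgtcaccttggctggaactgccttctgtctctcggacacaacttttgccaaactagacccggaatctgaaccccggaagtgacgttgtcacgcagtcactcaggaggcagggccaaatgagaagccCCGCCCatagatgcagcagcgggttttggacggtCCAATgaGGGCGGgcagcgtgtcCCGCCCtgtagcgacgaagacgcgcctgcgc
Usp36: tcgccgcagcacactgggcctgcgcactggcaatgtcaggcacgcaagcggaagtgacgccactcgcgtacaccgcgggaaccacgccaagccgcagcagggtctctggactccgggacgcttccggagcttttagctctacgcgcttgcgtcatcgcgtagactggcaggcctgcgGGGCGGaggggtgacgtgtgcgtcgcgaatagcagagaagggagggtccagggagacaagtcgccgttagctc
Dazap2: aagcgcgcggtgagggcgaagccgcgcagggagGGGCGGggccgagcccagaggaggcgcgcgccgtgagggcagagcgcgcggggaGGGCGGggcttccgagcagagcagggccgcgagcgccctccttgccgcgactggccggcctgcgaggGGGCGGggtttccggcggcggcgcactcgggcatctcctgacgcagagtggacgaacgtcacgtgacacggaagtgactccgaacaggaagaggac
Gnb1: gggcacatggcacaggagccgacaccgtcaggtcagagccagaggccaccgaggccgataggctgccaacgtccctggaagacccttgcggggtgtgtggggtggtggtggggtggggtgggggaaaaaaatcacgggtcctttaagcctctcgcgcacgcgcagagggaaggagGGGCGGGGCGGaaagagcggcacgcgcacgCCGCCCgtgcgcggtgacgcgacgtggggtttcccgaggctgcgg
Rpe65: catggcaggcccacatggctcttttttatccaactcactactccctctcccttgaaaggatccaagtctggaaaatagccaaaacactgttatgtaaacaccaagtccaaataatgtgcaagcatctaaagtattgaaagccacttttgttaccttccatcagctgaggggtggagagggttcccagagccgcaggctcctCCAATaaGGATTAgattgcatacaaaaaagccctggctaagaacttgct

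The Nmt2 sequence lies at chr2:3283962-3284211 on the plus strand and belongs to a gene for an N-myristoyltransferase, which attaches a lipid to proteins. It held 7 GC boxes and 70.8% G and C. The sequence of LOC114841036 lies at chr19:6980441-6980690 on the minus strand, and its promoter window is shared with Fkbp2, the gene of a prolyl isomerase of the endoplasmic reticulum. The Usp36 sequence, of a nucleolar deubiquitinase, lies at chr11:118290245-118290494 on the minus strand and held 1 GC box. The Dazap2 sequence, at chr15:100615412-100615661 on the plus strand, had the highest G and C content of those shown, 74.4%, with 3 GC boxes. Gnb1, the gene of the beta subunit of rod transducin, starts beside chr4:155491111-155491360 on the plus strand. Rpe65, the visual cycle isomerase of the pigment epithelium, follows chr3:159598931-159599180 on the plus strand, which held 45.2% G and C, no GC box, 1 CCAAT box and 1 TAATCC.

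Across the ends, promoter sequence was available for 481 of 867 centromere-near and 633 of 1097 telomere-near protein-coding genes. A GC box stood in 51.8% of the centromere-near and 56.1% of the telomere-near sequences, and in 50.4% of all 11639 autosomal sequences of that length. CCAAT stood in 37.6% and 37.6% of them against 36.8% of all, and TAATCC in 6.03% and 6.48% against 5.40%. The median G and C content was 58.4% on the centromere-near side, 60.0% on the telomere-near side and 57.6% elsewhere. These shares describe letters, not bound sites.

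Insertions were sparser than elsewhere on the centromere-near side and denser on the telomere-near side, in both libraries. Centromere-near bins held on average 137 wild-type and 136 knockout insertions, telomere-near bins 204 and 208, and bins elsewhere 154 and 154. Relative to bins elsewhere the centromere-near density was 0.894 (95% interval 0.890 to 0.897) in the wild type and 0.885 (0.882 to 0.889) in the knockout. The telomere-near density was 1.33 (1.32 to 1.33) and 1.35 (1.34 to 1.35). The median bin held 76 and 74.5 insertions near centromeres, 142 and 145 near telomeres, and 94 and 92 elsewhere. In shares, the centromere-near bins held 3.50% and 3.47% of all autosomal insertions and the telomere-near bins 5.20% and 5.28%, each in 3.95% of the bins.

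The difference did not come from every chromosome. The centromere-near end was sparser than the rest of its own chromosome (the bins between both ends) in 12 of 19 autosomes and denser in 7. The telomere-near end was denser in 13 and sparser in 6. Each end lay on the same side of its chromosome in both libraries, 19 of 19 on either side, although the libraries share the genome and are not independent in this. Against 434 other stretches of 5 Mb, 13 of 19 centromere-near ends lay below the median stretch of 142 wild-type insertions per bin, and 14 of 19 telomere-near ends above it. Only 1 centromere-near end, on chromosome 14, lay under the lowest of those stretches, at 47.7 insertions per bin, and only 1 telomere-near end, on chromosome 11, above the highest, at 398.

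**Figure D1:**
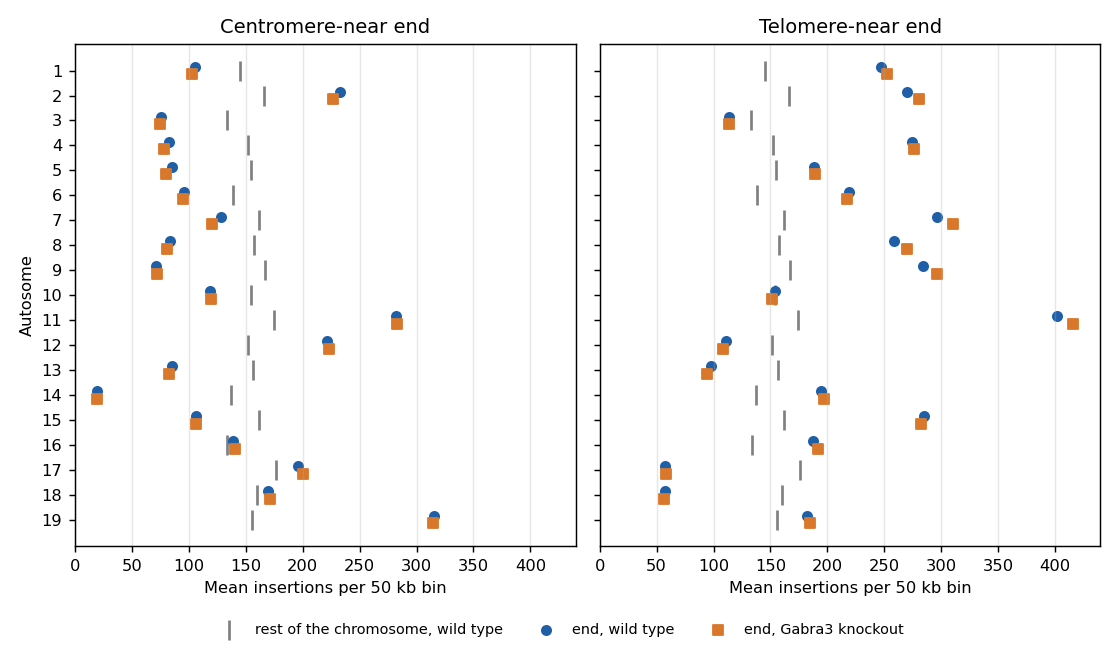
Mean insertions per 50 kb bin (x axis) at the centromere-near end (left) and the telomere-near end (right) of each autosome (y axis); blue circles are the wild-type library, orange squares the Gabra3 knockout library, and grey bars the wild-type mean over the bins between both ends of that chromosome. The circles and squares of an end lie close together, from 19.2 at the centromere-near end of chromosome 14 to 402 (wild type) and 416 (knockout) at the telomere-near end of chromosome 11.

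The sparsest centromere-near end was that of chromosome 14, with 19.2 wild-type and 19.3 knockout insertions per bin against 137 and 137 in the rest of the chromosome. It held 80 annotated protein-coding genes, of which 74 carry provisional Gm, LOC or Rik symbols, and 78 of the 80 promoters had fewer than 20 insertions summed over both libraries. In the same stretch 74.0% of the wild-type and 74.0% of the knockout reads had mapping quality 0. Counting every read regardless of mapping quality, once per position and strand, gave 80.9 and 80.1 per bin, and the ratio to the rest of the chromosome went from 0.140 and 0.141 to 0.549 and 0.542. The end was sparser than the rest of its chromosome by either count.

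Chromosomes 9 and 3 had the next sparsest centromere-near ends, with 71.5 and 75.2 wild-type and 72.3 and 74.8 knockout insertions per bin. Chromosome 9 also had many reads of mapping quality 0, and its ratio to the rest of the chromosome was 0.428 and 0.429 from unique reads and 0.732 and 0.742 from all reads. Chromosome 3 had 7 protein-coding genes in its 5 Mb, the fewest of the centromere-near ends, and its ratio stayed below 1 with all reads, at 0.607 and 0.617. Over the 19 autosomes, 12 centromere-near ends were below the rest of their chromosome with all reads too.

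The densest centromere-near ends were those of chromosomes 19, 11 and 2, with 315, 282 and 233 wild-type and 314, 283 and 227 knockout insertions per bin. Chromosome 19 had 183 protein-coding genes there, the most of any end, and a density 2.02 (1.998 to 2.05) times that of the rest of the chromosome in the wild type. On the telomere-near side chromosomes 11, 7 and 9 were densest, with 402, 297 and 284 wild-type and 416, 311 and 296 knockout insertions per bin. The ratio of the chromosome 11 end to the rest of its chromosome was 2.30 (2.28 to 2.33) and 2.39 (2.36 to 2.41), the highest of all 38 ends. The sparsest telomere-near ends were those of chromosomes 18, 17 and 13, with 57.5, 57.5 and 97.6 wild-type and 56.4, 58.6 and 94.5 knockout insertions per bin. Those of chromosomes 17 and 18 held 4 and 8 protein-coding genes.

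Gene content and the share of reads with mapping quality 0 varied with density among the ends. The 19 ends of a side share 1 library and may differ in base composition, so Spearman's rank correlations are given as a description. Between the number of protein-coding genes and the wild-type density the correlation was 0.39 near centromeres and 0.73 near telomeres. Between the share of mapping quality 0 and that density it was -0.63 near centromeres and -0.77 near telomeres. Reads of mapping quality 0 are left out of the density, so these values are not independent. The ends held 9.13 protein-coding genes per Mb near centromeres and 11.5 near telomeres, against 8.40 elsewhere. No protein-coding gene overlapped 44.5% of centromere-near bins, 34.7% of telomere-near bins and 42.0% of bins elsewhere.

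Comparing bins with the same number of genes left part of each difference in place. Among bins without a gene the wild-type mean was 75.1 near centromeres, 107 near telomeres and 85.9 elsewhere, ratios of 0.874 (0.867 to 0.881) and 1.24 (1.23 to 1.25). With 1 gene the ratios were 0.911 and 1.27, and with 2 to 3 genes 0.861 and 1.18. With 4 or more genes the order changed: the centromere-near bins were denser than elsewhere, at 1.08 (1.07 to 1.10), and the interval of the telomere-near ratio, 0.988 to 1.01, included 1 in the wild type. The knockout library gave 0.873, 0.901, 0.849 and 1.07 near centromeres and 1.27, 1.29, 1.19 and 1.02 near telomeres for the same 4 classes, the last with an interval of 1.003 to 1.03. Bins with 4 or more genes numbered 47 and 66 at the ends, and chromosome, repeat content and gene length were not matched.

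**Figure D2:**
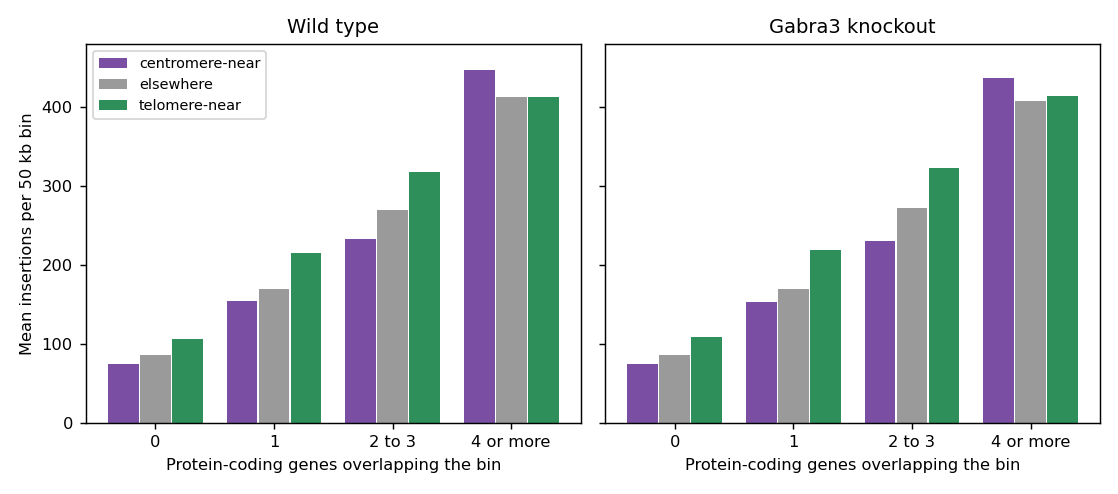
Mean insertions per 50 kb bin (y axis) for bins overlapping 0, 1, 2 to 3, or 4 or more protein-coding genes (x axis) in the wild-type library (left) and the Gabra3 knockout library (right), for centromere-near (purple), other (grey) and telomere-near (green) bins. Bars rise with gene number on every side; without a gene the wild-type means are 75.1, 85.9 and 107, and with 4 or more genes the centromere-near bar is the tallest.

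Open regions, stretches where insertions were concentrated well above their surroundings, numbered 1287 near centromeres and 1859 near telomeres, or 13.5 and 19.6 per Mb, against 14.8 per Mb elsewhere. They held 21.9% of the wild-type and 21.2% of the knockout insertions of centromere-near bins, 21.2% and 20.2% of those of telomere-near bins, and 19.4% and 18.6% elsewhere. Inside open regions the centromere-near bins held 1.01 times as many insertions per bin as elsewhere in both libraries, and outside them 0.866 and 0.857 times as many. The telomere-near bins held more of both, 1.45 and 1.47 times as many inside and 1.30 and 1.32 times outside. Over all 19 autosomes the lower centromere-near density was thus found between open regions, where most insertions of every side lay. This depended on chromosome 19. Without it the centromere-near density ratio was 0.830 in the wild type and 0.821 in the knockout. The share of centromere-near insertions in open regions was then 19.7% and 19.01%, near that elsewhere, so the lower density was not confined to either kind of stretch.

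Density was not even along the ends. The outermost 500 kb of the centromere-near side held 101 wild-type and 101 knockout insertions per bin. The level rose to 180 and 180 at 2 to 2.5 Mb inward, and it fell to 102 and 100 at 4.5 to 5 Mb. In the outermost step 57.0% and 59.8% of reads had mapping quality 0 and were not counted, and 8 of 190 bins held no read. Without chromosome 9 these shares were 22.1% and 23.5%. Density by distance was not computed from all reads. The outermost 500 kb of the telomere-near side held 109 and 108, below the 154 of bins elsewhere, and the level rose to 255 and 262 at 3.5 to 4 Mb. With ends of 2 Mb in place of 5 Mb the telomere-near ratio to elsewhere was 1.03 in both libraries, so its excess lay mostly in the inner 3 Mb. Within its own end, the outermost 500 kb was sparser than the other bins in 16 of 19 centromere-near ends in either library, and in 17 (wild type) and 18 (knockout) of 19 telomere-near ends. The exceptions near centromeres were chromosomes 8, 9 and 11, and chromosome 11 had 440 wild-type and 442 knockout insertions per bin in the outermost 500 kb against 264 and 265 further in.

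The bins at the inner border of the ends were like those beyond it. The last bin inside the centromere-near ends held 87.4 wild-type and 85.3 knockout insertions on average over 19 autosomes, and the first bin outside 85.6 and 83.6. On the telomere-near side these means were 175 and 175 inside and 186 and 192 outside.

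**Figure D3:**
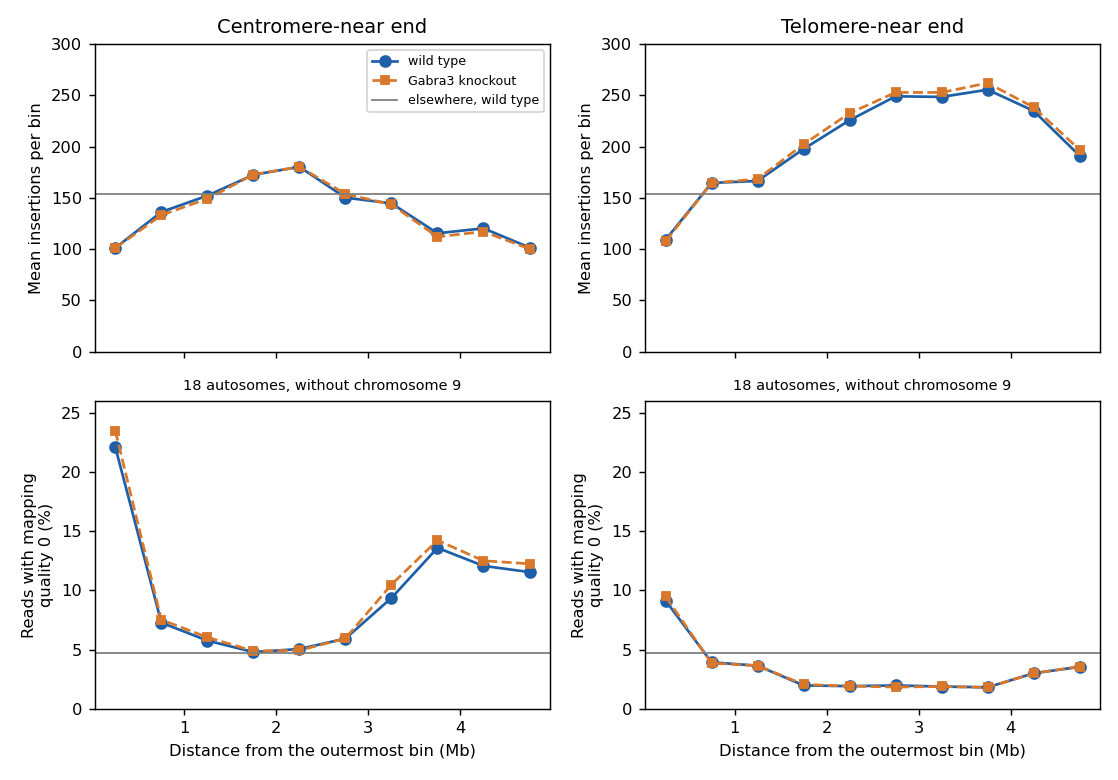
Mean insertions per 50 kb bin (top) and share of reads with mapping quality 0 (bottom, without chromosome 9) against the distance from the outermost bin in steps of 500 kb, for the centromere-near (left) and telomere-near (right) ends; blue circles are wild type, orange squares Gabra3 knockout, and the grey line the wild-type level elsewhere. Density is low at both tips, and the share of reads with mapping quality 0 is highest in the outermost 500 kb, at 22.1% and 23.5% near centromeres.

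Reads without a unique place were concentrated on the centromere-near side. There 15.4% of wild-type reads (15.3 to 15.5) and 16.6% of knockout reads (16.5 to 16.7) had mapping quality 0, against 2.90% and 2.91% near telomeres and 4.75% and 4.90% elsewhere. The centromere-near bins thus held 11.8% and 12.3% of all autosomal reads of mapping quality 0. One bin decided much of this value: without chromosome 9 the shares were 9.15% and 9.59%. The median autosome had 8.33% and 9.56% near the centromere and 2.29% and 2.38% near the telomere. The share exceeded that of the rest of the chromosome at 15 of 19 centromere-near and 6 of 19 telomere-near ends in either library.

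The bin with most such reads in the autosomes was the first of chromosome 9, at chr9:3000001-3050000, which overlaps no protein-coding gene of the annotation. It held 24904 wild-type and 27978 knockout reads, of which 23630 and 26538, or 94.9% in either library, had mapping quality 0. These fell on 4757 and 4998 distinct positions and strands, more than 1 read for each on average. Unique reads gave 529 and 561 insertions there, and the next bin inward held 61 and 67.

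A different pattern was seen on chromosome 12, at chr12:3100001-3150000. Of its 2528 wild-type and 2822 knockout reads, 2286 and 2557 had mapping quality 0, they fell on 148 and 157 distinct positions and strands, and the 5 single kb with most reads held 98.3% of all reads of the bin. On chromosome 17 the 3 bins with most reads of mapping quality 0 overlapped Tmem181a, Dynlt1f and Rnaset2b with Tagap1, genes that belong to families of close relatives, and 62.99% to 74.5% of reads there had mapping quality 0. The highest shares were on chromosome 14, where the bins from 3400001, 3600001 and 3700001, with the predicted genes Gm10408, Gm3012 and Gm3050, held 82, 79 and 59 wild-type and 82, 56 and 67 knockout reads, all of mapping quality 0. No insertion was counted in them.

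The telomere-near side held fewer such reads, except in its outermost bins. In the outermost 500 kb 8.75% and 9.08% of reads had mapping quality 0, against a lowest value of 1.79% and 1.78% at 3.5 to 4 Mb. The outermost 500 kb had a higher share than the rest of the end in 17 of 19 telomere-near ends in either library, and in 16 and 17 of 19 centromere-near ends. The bin with most such reads was chr9:121900001-121950000, at Ackr2 and the bile acid enzyme gene Cyp8b1, with 192 of 625 wild-type and 159 of 577 knockout reads. Other leading bins lay in a zinc finger gene cluster of chromosome 2, where chr2:177450001-177500000 at Zfp970 had 76 of 138 and 81 of 131, and chr2:178050001-178100000 at Zfp931 had 66 of 169 and 80 of 181. Near the telomere of chromosome 13 the bin from 120050001, at Gm21188, held 72 of 78 and 53 of 54.

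**Figure D4:**
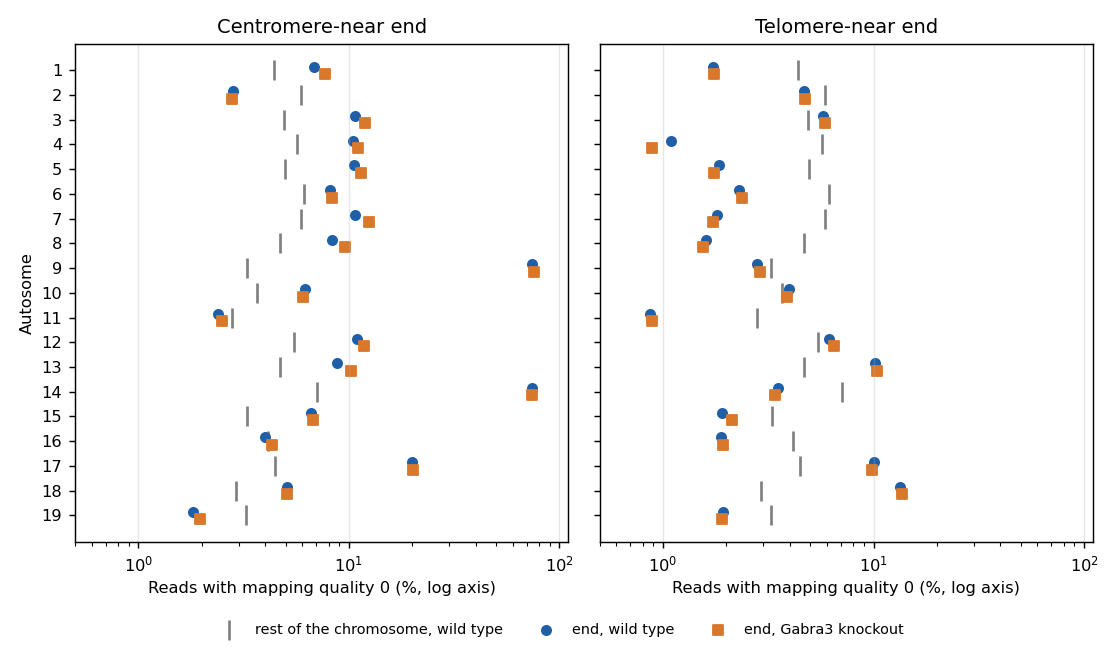
Share of reads with mapping quality 0 (x axis, log scale, percent) at the centromere-near end (left) and telomere-near end (right) of each autosome (y axis), with wild type as blue circles, Gabra3 knockout as orange squares and the wild-type rest of the chromosome as grey bars. The centromere-near ends of chromosomes 9 and 14 stand at 74.1% and 74.0% in the wild type, and telomere-near shares run from 0.870% on chromosome 11 to 13.4% on chromosome 18.

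The bins with most insertions on the centromere-near side were led by neighbouring bins of chromosome 11, from 3100001 to 3200000, which overlap Sfi1, a gene for a centrin-binding protein of the centrosome. They held 1240 and 1702 wild-type and 1223 and 1737 knockout insertions and ranked 13 and 4 of all 48084 bins, while the next bin inward held 183 and 174. The Sfi1 gene body carried 37.9 and 38.2 insertions per kb, the most of 9576 autosomal genes of at least 20 kb, whose median was 4.47 and 4.57. The same length beyond its end at 3203347 carried 3.33 and 3.30 per kb. The insertions were spread along the gene, and the median kb of the bin at 3150001 held 35.0 in the wild type and 35.5 in the knockout. No kb of that bin was empty, and 1.51% and 1.36% of its reads had mapping quality 0. Open regions held 260 of its 1702 wild-type and 245 of its 1737 knockout insertions. The part of accessibility and of the copy number of the segment in this level was not tested.

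Next came chromosome 19. The bin chr19:4100001-4150000 held 1020 and 946 insertions and overlaps 6 genes, among them Cabp4, a calcium-binding protein of the photoreceptor synapse. The promoter of Cabp4 held 9 and 13 of them. The bin chr19:6950001-7000000 held 824 and 778 insertions over 10 genes, led by the shared promoter of LOC114841036 and Fkbp2 with 252 and 244. The fifth overlapped Dnmt3a, the gene of a de novo DNA methyltransferase, at chr12:3800001-3850000 with 726 and 806.

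On the telomere-near side chromosome 2 led. The bin chr2:180450001-180500000 held 1029 and 1018 insertions, of which 176 and 170 lay at the promoter of Slco4a1, an organic anion transporter gene. The bin chr2:180250001-180300000 held 987 and 979, with 252 and 268 at the promoter of Cables2. The bin of Bhlhe41, a circadian transcriptional repressor, at chr6:145850001-145900000 held 886 and 899. The other two lay on chromosome 11. The bin chr11:120450001-120500000, with 7 genes among them Pde6g, held 877 and 892, led by a promoter shared by Arl16 and Hgs with 152 and 137. The bin chr11:120350001-120400000, with Fscn2 and 2 other genes, held 855 and 902, led by the promoter of Faap100, a Fanconi anaemia complex subunit, with 102 and 122. All 5 were near telomeres of 3 chromosomes, and none had more than 1.27% of reads of mapping quality 0.

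Promoter levels at the ends were close to those elsewhere. The median promoter held 16 wild-type and 16 knockout insertions near centromeres, 17 and 17 near telomeres and 15 and 15 elsewhere. The sum of both libraries reached 100 insertions at 35.9% of centromere-near, 35.6% of telomere-near and 35.8% of other promoters. The strongest centromere-near promoter, Nmt2, held 287 and 269 insertions and ranked 60 of 20560. After it came, among others, Sf1, a branch-point splicing factor, with 252 and 243, Pcx, the pyruvate carboxylase gene, with 213 and 238, Aasdhppt with 224 and 209, and Kmt5c, a histone methyltransferase of pericentromeric heterochromatin, with 246 and 194. Of these, Kmt5c was lower in the knockout, at -0.34 (-0.62 to -0.07) on the log2 scale after scaling to all autosomal insertions, and the intervals of the other 9 of the 10 strongest included 0. Over all promoters with at least 100 insertions, 0.896% had an interval above 0 and 2.24% one below 0.

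The strongest telomere-near promoters were Usp36 with 313 and 276 insertions and Dazap2 with 302 and 274, which ranked 40 and 47. Tmem80 followed with 276 and 273. A shared window of Gm20783 and LOC108167694 near the end of chromosome 9 held 254 and 279. Further down were Camta1, a calmodulin-binding transcription activator, with 265 and 244, Uspl1, a SUMO protease, with 254 and 245, Vps26c, an endosomal recycling subunit, with 259 and 233, and Ints13, an Integrator subunit that shares its window with Fgfr1op2, with 251 and 239. The intervals of the ratio included 0 for all 10.

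Of the retinal marker genes, 6 of 26 autosomal rod genes lay at the ends, 3 on each side. Pde6g, the inhibitory subunit of rod phosphodiesterase, held 102 wild-type and 91 knockout insertions at its promoter, Gnb1 held 84 and 67, and Fscn2, an actin-bundling protein of photoreceptors, held 22 and 30. The centromere-near rod genes were lower: Gngt1, the gamma subunit of rod transducin, held 16 and 13, Cabp4 9 and 13, and Rp1, a microtubule protein of the photoreceptor axoneme, 4 and 3. At counts this low the window used can lie at the gene end where transcription stops, so these values may not be promoter levels. The Rp1 body, from 4115673 to 4409266 on chromosome 1, held 1174 and 1157 insertions. That count covers the whole length of a long gene and cannot be set against the count of a promoter window. The autosomal rod list as a whole had a median of 73 and 67.5.

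Markers of other cells at the ends were mostly low. Among bipolar genes, Pcp2 held 12 and 8 at its centromere-near promoter and Isl1, a transcription factor of several inner retinal neurons, 25 and 34 near a telomere. Th of dopaminergic amacrine cells held 8 and 11. The neurofilament gene Nefh, of ganglion cells, held 36 and 52 in a window shared with Ap1b1. Cx3cr1 of microglia held 3 and 0. Rpe65 held 1 and 2, and Pmel, a pigment cell gene whose window overlaps that of Rab5b, 104 and 88. No cone, horizontal cell, Muller glia or vascular gene of the lists lay at an end.

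Receptor genes had few insertions at their promoters, at the ends as elsewhere. Among autosomal olfactory receptor genes, 10 (0.907%) were centromere-near and 71 (6.44%) telomere-near, 58 of the latter on chromosome 10, where they made up 58 of 162 genes. Their median promoter held 1.5 and 2 insertions near centromeres and 1 and 1 near telomeres, against 1.5 and 2 over 1022 genes elsewhere, and none had 100. Vomeronasal receptor genes, 23 near centromeres and 20 of these on chromosome 7, had a median of 1 and 0, against 1 and 1 over 322 genes elsewhere. An exception was Vmn2r29, named after its values were seen, with 55 and 58. The Zfp zinc finger genes had more, with a median of 64 and 58 over 23 centromere-near and 44 and 46 over 16 telomere-near genes, against 45 and 43 elsewhere. Cytosolic ribosomal protein genes, 4 and 8 in number, had medians of 91 and 95 near centromeres and of 107.5 and 110.5 near telomeres.

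Summed over a side, the ends held nearly the same number of insertions in both libraries. Scaled to all autosomal insertions, the summed centromere-near counts of 261207 (wild type) and 259030 (knockout) gave a log2 ratio, knockout over wild type, of -0.01 (-0.02 to -0.01). The telomere-near ratio was 0.02 (0.02 to 0.03), from 388020 and 394806, and bins elsewhere were at 0.00. The direction of the centromere-near ratio depended on the scaling. Scaled to insertions in open regions, whose knockout share was lower everywhere, every value rose by 0.06. The centromere-near ratio became 0.05 and the telomere-near ratio 0.08, the latter positive under either scaling. With ends of 2 Mb, scaled to all autosomal insertions, the telomere-near ratio was 0.0086 (-0.0029 to 0.0201), an interval that includes 0. Inside open regions, scaled to all autosomal insertions, the ratio was -0.06 near centromeres, -0.05 near telomeres and -0.06 elsewhere. Outside them it was 0.00, 0.04 and 0.01. Repeats of a position and strand were counted among reads with mapping quality of at least 10 only. Of these reads they made up 9.94% (wild type) and 8.68% (knockout) near centromeres, 9.85% and 8.52% near telomeres, and 11.3% and 9.58% elsewhere. The part of these shares in the ratios was not tested.

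By chromosome, the counting interval lay below 0 at 5 centromere-near ends, of chromosomes 2, 4, 5, 7 and 8, and above 0 at 1, of chromosome 17. It lay above 0 at 7 telomere-near ends, of chromosomes 1, 2, 7, 8, 9, 11 and 16, and below 0 at 1, of chromosome 13. Of all 472 stretches of 5 Mb, ends included, 14.6% lay above 0 and 18.6% below, and among the 434 stretches elsewhere 14.1% and 18.9%. The corresponding shares were 5.26% above and 26.3% below at centromere-near ends and 36.8% above and 5.26% below at telomere-near ends. Of 19 telomere-near ends, 5 lay above the 95th percentile of the stretches elsewhere (0.04) and none below the 5th (-0.06), and of 19 centromere-near ends 3 lay below the 5th and none above the 95th. Whether a side differed from other stretches was not tested, since stretches of 1 library are not replicates. The widest values at the ends, -0.10 and 0.06, were both on chromosome 7, at its centromere-near and telomere-near end, and lay inside the range of the 434 other stretches, -0.12 to 0.09. On chromosome 7 the counts were 12856 wild-type and 11997 knockout near the centromere, and 29662 and 31059 near the telomere.

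**Figure D5:**
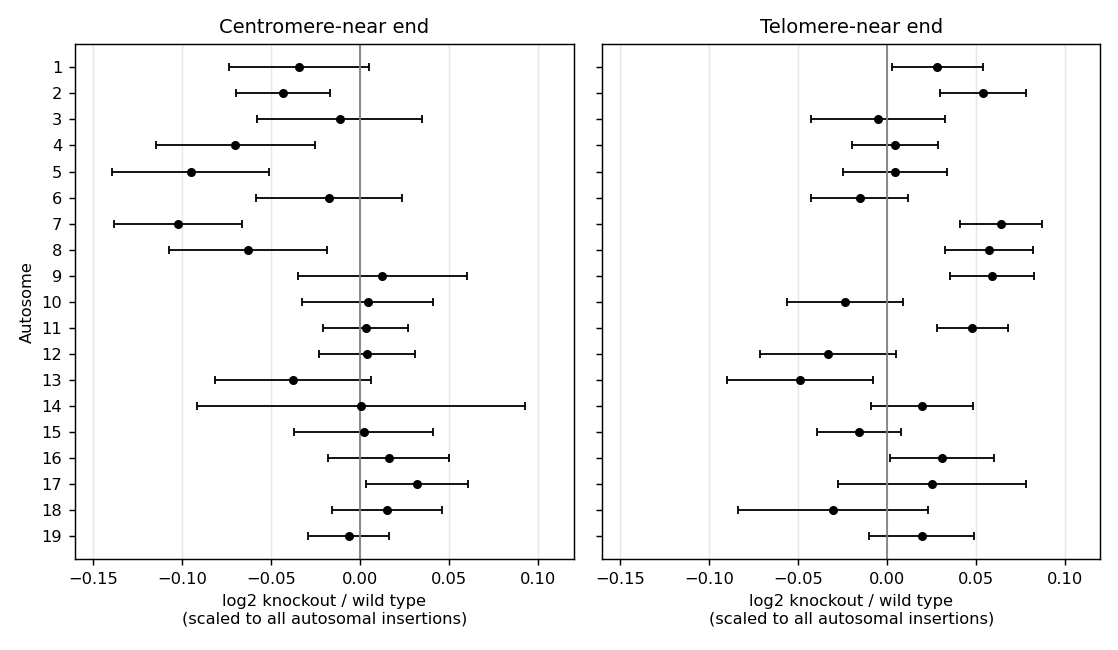
Log2 ratio of knockout over wild-type insertions (x axis), scaled to all autosomal insertions, for the centromere-near (left) and telomere-near (right) end of each autosome (y axis); points are ratios and bars 95% intervals for counting error only. All points lie between -0.10 and 0.06, and the grey line marks equal levels.

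Among single bins, differences of 2-fold were nearly absent. Of 42549 autosomal bins with at least 100 insertions summed, 0.00705% were at least 2-fold higher in the knockout and 0.00705% at least 2-fold lower. Of the 1465 such centromere-near bins none reached this in either direction, and of the 1660 telomere-near bins none was higher and 1 was lower. That bin, chr17:93050001-93100000, overlaps no protein-coding gene and held 69 insertions in the wild type and 32 in the knockout. Its log2 ratio was -1.10 (-1.76 to -0.49). With mapping quality of at least 30, or with all reads kept, no telomere-near bin was called.

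At 1.5-fold, where 0.571% of all such bins were higher and 0.656% lower, 6 and 14 of the centromere-near bins and 9 and 8 of the telomere-near bins were called, shares of 0.41% and 0.956% and of 0.542% and 0.482%. The counting interval lay above 0 in 35 and below 0 in 48 centromere-near bins, and above 0 in 73 and below 0 in 37 telomere-near bins. Over all bins 2.85% and 2.88% did. The most extreme centromere-near bins were chr5:7350001-7400000 with 67 and 35 insertions and chr16:5550001-5600000 with 47 and 87, neither with a protein-coding gene. On the telomere-near side chr12:119900001-119950000, at Tmem196, held 42 and 74. A bin overlapping Rpe65, chr3:159600001-159650000, held 37 and 64, a log2 ratio of 0.78 (0.18 to 1.41). These bins hold few insertions and were picked as the extremes of their side.

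Reads of mapping quality 0 made up a larger share of the knockout than of the wild-type library in 16 of 19 centromere-near and 11 of 19 telomere-near ends. Elsewhere the knockout share was larger too, 4.90% against 4.75%, so this was not particular to the ends. The median of the 434 stretches of 5 Mb elsewhere was 4.27% in the knockout and 4.02% in the wild type. How many of those stretches had a larger knockout share was not counted. The first bin of chromosome 9 alone gave 44.7% of the wild-type and 46.9% of the knockout centromere-near reads of that kind. The reads of mapping quality at least 10 in that bin numbered 1249 and 1412.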

How the data were processed

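ATAC-seq reads of 1 wild-type and 1 Gabra3 knockout library were used as deposited, 1 aligned read of 75 bp per line. Trimmomatic 0.33, BWA, bedtools 2.23.0 and the GRCm38 (mm10) build are named per the submitters' processing notes. What each tool did, which BWA version was used and how duplicates were handled is not given in the sources used here. Each deposited line has a score, which is the aligner's mapping quality, from 0 to 37, and was not normalized. Read starts and ends, as deposited, are genome coordinates.

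From these, reads with mapping quality of at least 10 were taken, and the 5-prime end of each was moved by 4 bp on the plus strand and -5 bp on the minus strand to the Tn5 insertion site and counted once per position and strand. The share of reads with mapping quality 0 used all reads. Insertions were counted in 50 kb bins from 3 Mb to the last bin with a read. Chromosomes X and Y were not analysed here. Open regions (35999 on the autosomes) were called on both libraries summed at equal depth, from 200 bp windows moved by 50 bp. A window counted when its Poisson p was under 1e-05 given the genome-wide mean or, if larger, that of the 10000 bp around it, and windows within 150 bp were joined. Genes came from a RefSeq table of GRCm38.p6 that gives no strand, so a promoter window spanned 500 bp to each side of whichever gene end held more insertions. At genes with few insertions this can be the end where transcription stops. Promoter sequences came from a RefSeq table of the same build and were matched by symbol, and none of chromosome 18 is shown. No genome sequence was used, so base composition and repeats of the bins were not computed.

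Ratios of the genotypes are log2 values, knockout over wild type, with 0.5 added to both counts, and are scaled to all autosomal insertions. Ratios and shares have exact (Clopper-Pearson) 95% intervals, which cover counting error only, and reads carry no molecular identifiers. Bins and chromosomes of 1 library are not replicates, so no test was run over them. Called bins had at least 100 insertions summed. The bin counts and intervals were checked on simulated data.

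For each side the named chromosomes were the 3 densest and 3 sparsest, and the named bins those with most insertions, most reads or the highest share of mapping quality 0, and the most extreme ratios. The named genes were those leading these bins, the 10 strongest promoters and the retinal markers at the ends, and not all of them are named. The members, gene lists and settings were chosen with earlier results of these data known. Alternatives changed the width of the ends, the mapping quality minimum, the counting of repeated reads, the scaling, the bins kept and the fold, and left out each autosome in turn. Python 3.11.15, NumPy 2.4.6, pandas 2.3.3, SciPy 1.17.1 and Matplotlib 3.10.9 were used.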

Additional observations from a re-analysis of the deposited data

How the results depend on the processing

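In the settings below values are given as wild type and knockout where both exist. The direction of both density ratios was kept in all alternatives, including those that left out 1 autosome, and the cause of each shift was not tested. For the centromere-near density ratio they were 0.905 and 0.893 with ends of 2 Mb, 0.829 and 0.814 with ends of 10 Mb, 0.877 and 0.867 at mapping quality of at least 30, 0.881 and 0.876 with all reads kept, 0.952 and 0.946 at any mapping quality (a setting chosen after seeing the data), 0.897 and 0.889 in bins with a read, 0.874 and 0.873 in bins without a gene, and 0.809 and 0.810 for medians. For the telomere-near ratio they were, in the same order, 1.03 and 1.03, 1.26 and 1.28, 1.33 and 1.35, 1.31 and 1.33, 1.30 and 1.32, then 1.24 and 1.27 in bins without a gene and 1.51 and 1.58 for medians, with 1.30 and 1.32 without the 1% of bins with most insertions. Leaving out each autosome gave 0.830 to 0.931 and 0.821 to 0.922 near centromeres, and 1.27 to 1.39 and 1.28 to 1.41 near telomeres. The centromere-near share of mapping quality 0 was 22.9% and 24.9% (2 Mb), 11.9% and 12.7% (10 Mb), 10.6% and 10.95% with repeated reads counted once, and 7.78% and 8.08% without the 10 bins with most such reads. The telomere-near share was 4.07% and 4.14%, 3.13% and 3.15%, 3.16% and 3.13%, and 2.73% and 2.74%. Leaving out each autosome gave 9.15% (chromosome 9) to 17.0% and 9.59% to 18.3% near centromeres, and 2.71% to 3.14% and 2.71% to 3.14% near telomeres. The centromere-near log2 ratio was -0.0263 with ends of 10 Mb, 0.047 scaled to open regions, which reversed it, and -0.0291 scaled outside them, and -0.0183 to -0.0106 leaving out an autosome. The telomere-near log2 ratio was 0.0086, 0.0161, 0.084 and 0.008 with ends of 2 Mb, of 10 Mb, scaled to open regions and outside them, and 0.0186 to 0.0254 leaving out an autosome. Bins at 2-fold near centromeres numbered 1 with at least 50 insertions and 20 at 1.5-fold. Near telomeres they numbered 0 at mapping quality of at least 30, with all reads kept and in 10 kb bins, 2 with at least 50 insertions and 17 at 1.5-fold, and 0 to 1 leaving out an autosome, the 0 without chromosome 17. The share inside open regions near centromeres was 25.5% and 24.6% (2 Mb), 19.5% and 18.9% (10 Mb), 22.1% and 21.4% (mapping quality of at least 30), 27.0% and 25.9% (all reads), and 19.7% and 19.1% (regions at Poisson p under 1e-08). Near telomeres it was 24.6% and 23.3%, 20.6% and 19.7%, 21.4% in the wild type, 26.3% and 24.8%, and 19.03% and 18.1%. Leaving out each autosome gave 19.7% to 22.4% and 19.01% to 21.7% near centromeres, and 20.5% to 21.6% and 19.5% to 20.5% near telomeres. No paired analysis was possible because there was 1 library per genotype. With 1 library each, the depth limits only the counting error, and the spread between animals is unknown.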

Other observations

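Non-coding genes were spread over the ends in other proportions than protein-coding genes. Pseudogenes numbered 4.85 per Mb near centromeres, 3.32 near telomeres and 3.62 elsewhere. Long non-coding RNA genes numbered 4.58, 6.98 and 5.07 per Mb, and tRNA genes 0.0526, 0.0316 and 0.171. MicroRNA genes numbered 0.411, 0.695 and 0.466 per Mb.

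The reference table of miRNA hairpins held 34 at centromere-near and 58 at telomere-near ends, whose median 500 bp surroundings held 4 wild-type and 4.5 knockout insertions and 4.5 and 5, against 5 and 5 for 827 hairpins elsewhere. The 3 hairpins with most insertions around them, and Mir338 from further down the order, were named after their values were seen, and insertions there may belong to a promoter of another gene. Mir3091, at chr2:180257536-180257611, had 189 and 150, Mir5620, at chr7:7298891-7298946, 169 and 162, and Mir210, at chr7:141221384-141221493, 165 and 147. Mir338, at chr11:120014765-120014862, a miRNA of neurons and oligodendrocytes, had 17 and 19. Their mature sequences follow with the seed in capitals, to show that none of these shares its seed with another.
mmu-miR-3091-5p: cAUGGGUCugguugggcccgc
mmu-miR-5620-5p: aCGAGGCAggggcuuugacugug
mmu-miR-210-3p: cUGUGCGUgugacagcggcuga
mmu-miR-338-3p: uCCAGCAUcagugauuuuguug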
